A study of Mus musculus with 6 samples.

Results

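The aquaporins described here are Aqp1, Aqp3, Aqp8, Aqp9 and Aqp11 in maturing mouse erythroid cells. They were taken as every non-control probe whose gene name in the array files is one of these 5 symbols, which gave 7 probes of 55681: 2 each for Aqp8 and Aqp11 and 1 each for Aqp1, Aqp3 and Aqp9. Aqp8 was chosen by its large increase after SetD8 siRNA on these same arrays, so its values are a description with no test. The other 4 genes are paralogs of Aqp8 and only part of the family on the array. All members were chosen with earlier results of these data known. The cells were G1E-ER-GATA-1, a line of mouse erythroid precursors without endogenous Gata1, in which an estrogen receptor fusion of GATA-1 is switched on by β-estradiol and the cells then mature. The 3 SetD8 siRNA arrays and the 3 control siRNA arrays came from cells that received SetD8-specific siRNA in the first group and non-targeting siRNA in the second, each by nucleofection at the start and again after 24 h. Cells of both groups, which share the Gata1 background and the hormone, were kept in β-estradiol for 24 h and taken for RNA at 48 h. Setd8 (current symbol Kmt5a) encodes a histone H4 methyltransferase that places a single methyl group on lysine 20. The model is limited to 1 cell line and 1 time of harvest. Nothing in the labels ties the 3 arrays of a group to different cultures, so the p-values reflect no more than array-to-array spread, possibly technical.

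Aquaporins are membrane proteins that form pores as tetramers, in which each subunit holds its own channel. Some pass water, the aquaglyceroporins also pass glycerol and other small solutes, and Aqp8 is known to pass ammonia and hydrogen peroxide as well. In red cells Aqp1 is the main water channel, and in mouse red cells Aqp9 is known as a route for glycerol.

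The probes are 60 bases long, and 3 of them are shown, for Aqp8, Aqp11 and Aqp9. All are on mm9 as given in the array files, with the plus or minus strand of the gene. The Aqp8 sequence lies at chr7:130606210-130606269 (plus strand), the Aqp11 sequence at chr7:104877482-104877541 (minus strand) and the Aqp9 sequence at chr9:70978252-70978311 (minus strand). The files place them at transcript positions 290, 935 and 617.
Aqp8 5′ probe: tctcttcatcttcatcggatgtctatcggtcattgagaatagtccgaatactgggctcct
Aqp11 5′ probe: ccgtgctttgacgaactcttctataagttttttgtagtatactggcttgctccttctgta
Aqp9 probe: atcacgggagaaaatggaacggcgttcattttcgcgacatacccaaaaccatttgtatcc
Each of these 3 sequences shared a run of at most 8 bases with any other aquaporin's probe outside Aqp4, whose probes were not compared. The probes were not compared with paralog transcripts, so these runs do not show that a probe tells its gene from its paralogs. The second Aqp8 probe lies 5243 bp further along the gene (chromosome 7, 130611453 to 130611512, transcript position 1421), so the pair reads the early and the late part of the transcript. The second Aqp11 probe is at transcript position 1262 (chromosome 7, 104874889 to 104874948). The Aqp1 probe (chromosome 6, 55298480 to 55298539) and the Aqp3 probe (chromosome 4, 41039962 to 41040021) are at transcript positions 2690 and 1498.

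The arrays differed in detection, mostly among the controls. Between 60.3% and 68.6% of spots were well above background on the SetD8 arrays, and 64.1%, 40.2% and 82.5% on controls 1, 2 and 3. SetD8 1, SetD8 2 and control 1 shared slide 1, slide 3 held SetD8 3 and control 3, and slide 2, scanned on another day, held control 2. Values are given in 2 settings: log2 processed signal minus the array's 75th percentile (the percentile setting), and normexp background correction with quantile normalization (the normexp-quantile setting). Setd8, the gene targeted, was lower on all SetD8 arrays than on any control array, with a log2 difference of -2.24 ± 0.51 (SE, adjusted p = 0.682 by limma) in the percentile setting and -2.07 ± 0.15 (adjusted p = 0.00847) in the normexp-quantile setting. A second Setd8 probe gave -1.37 ± 0.35 and -1.13 ± 0.24, with an adjusted p over probes of 0.931 and 0.146. Of the 14420 genes tested, limma with Benjamini-Hochberg adjustment and a threshold of 0.05 called 0% as higher and 0% as lower in the percentile setting, with 444 genes, 3.08%, at an unadjusted p under 0.05. In the normexp-quantile setting it called 1.46% as higher and 0.236% as lower, 1.7% in all, with 2274 genes, 15.8%, at an unadjusted p under 0.05.

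Cell type markers were read on the same arrays. Of the erythroid markers 9 of 9 on the array were well above background on all 6 arrays. In the normexp-quantile setting 1 of them rose, the embryonic β-like globin gene Hbb-bh1, beside 1.46% of all genes called higher. Its log2 signal there was 11.17, 11.27 and 11.82 on SetD8 1, 2 and 3 and 8.87, 8.80 and 9.04 on controls 1, 2 and 3, a difference of 2.52 ± 0.19 (SE, adjusted p = 0.00879 by limma). With slide as a block its adjusted p was 0.0383, without each array it was 0.0122 to 0.0797, and it was over 0.05 without SetD8 1, SetD8 2 or control 1. In the percentile setting Hbb-bh1 had a difference of 2.57 ± 0.40 (adjusted p = 0.323), and the median of the 9 erythroid markers was -0.16 there. Most erythroid markers went the other way in that setting, with 2 positive and 7 negative differences. Slc4a1, the band 3 gene, was at -1.41 ± 0.48 (SE, adjusted p = 0.951 by limma). In the normexp-quantile setting 4 were positive and 4 negative, with a median of 0. Of the megakaryocyte markers 6 of 6 passed the filter, 5 had a positive difference, and the median was 0.56 in the percentile setting and 0.41 in the normexp-quantile setting. The platelet glycoprotein gene Gp1ba rose in the normexp-quantile setting, by 0.79 ± 0.13 (adjusted p = 0.0471), 1 of 6 beside 1.46% of all genes called higher. For Gp1ba blocking on slide gave an adjusted p of 0.114 there. Leaving out each array gave 0.0419 to 0.262, under 0.05 without control 3 and over it without any other. Hbb-bh1, Slc4a1 and Gp1ba were singled out after their values were seen. With 0 calls in either setting, the medians were 0.68 and 0.25 for 4 of 10 granulocyte and macrophage markers that passed the filter, 0.24 and 0.12 for 4 of 5 lymphoid markers, 1.47 and 0.37 for 4 of 5 epithelial markers, and 0.23 and 0.13 for 2 of 4 endothelial markers. The median of all genes was 0.04 and 0.03. Of those kept, 4 megakaryocyte, 3 granulocyte and macrophage, 2 lymphoid, 1 epithelial and 2 endothelial markers were well above background on all 6 arrays. The others passed the filter through 1 group alone. Medians that include them rest in part on signals not well above background and can be moved by the filter itself. This holds above all for the epithelial median of 1.47. Krt14, the epithelial marker well above background on all 6 arrays, had 0.50 in the percentile setting and 0.14 in the normexp-quantile setting. The part of these markers in the aquaporin values was not tested.

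Aqp8, the water, ammonia and hydrogen peroxide channel, was 4.51-fold higher after SetD8 siRNA on its 3′ probe and 4.88-fold higher on its 5′ probe in the percentile setting. The processed signal of the 3′ probe was 2623, 1661 and 2108 intensity units on SetD8 1, 2 and 3, against 540, 694 and 385 on controls 1, 2 and 3. Relative to each array's 75th percentile the log2 signal was 3.61, 3.78 and 3.66 on the SetD8 arrays and 1.69, 2.19 and 0.66 on the control arrays. The SetD8 arrays lay close together, the control arrays were spread out, and the groups did not overlap. A wider control spread in this setting was not particular to Aqp8. The erythroid marker Klf1 had an SD of 0.12 on SetD8 arrays and 0.79 on control arrays, while Aqp3 went the other way, at 0.52 and 0.03. In such bulk samples, a change in the share of cells that hold the transcript and a change in the transcript per cell cannot be told apart.

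The 5′ probe of Aqp8 was dimmer but showed the same separation. Its processed signal was 241, 110 and 162 units on SetD8 1, 2 and 3, against 34.8, 40 and 38.5 on controls 1, 2 and 3. The log2 signal relative to the 75th percentile was 0.17, -0.13 and -0.04 on the SetD8 arrays and -2.27, -1.93 and -2.66 on the control arrays. Both Aqp8 probes were well above background on all 6 arrays, so the control level was measured and not merely bounded.

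The mean log2 signal of the Aqp8 3′ probe was 3.69 ± 0.09 on SetD8 arrays and 1.51 ± 0.78 on control arrays (SD, n = 3 each), a difference of 2.17 ± 0.46 (SE). That of the 5′ probe was 0.00 ± 0.16 on SetD8 arrays and -2.29 ± 0.37 on control arrays, a difference of 2.29 ± 0.35. At this scaling 60 genes, Aqp8 included, had a difference at least as large as that of its 3′ probe. With normexp and quantile normalization 11 did.

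**Figure D1:**
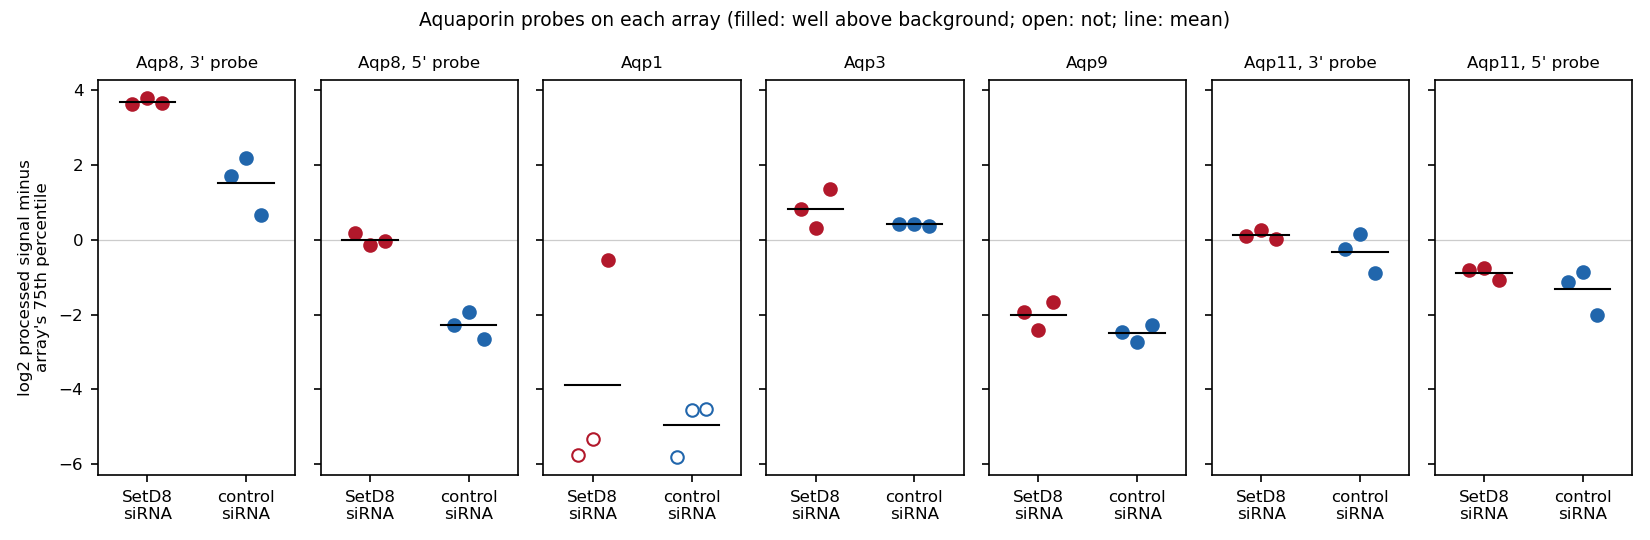
Log2 processed signal minus the array's 75th percentile (y axis) for the 7 probes, with the SetD8 siRNA arrays left and the control siRNA arrays right in each panel, each point 1 array in the order 1, 2, 3 and each line the mean of 3 arrays. Both Aqp8 probes separate the groups, the Aqp3, Aqp9 and Aqp11 probes overlap, and Aqp1 is well above background (filled point) on SetD8 3 alone. Levels cannot be compared between panels, which show different probes.

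The size of the Aqp8 difference depended little on the processing for the 3′ probe and more for the 5′ probe. Under normexp and quantile normalization the 3′ probe was at 11.20, 11.36 and 11.19 on SetD8 1, 2 and 3 and at 9.18, 9.23 and 8.69 on controls 1, 2 and 3 (log2), a difference of 2.22 ± 0.18 (SE) or 4.67-fold. The 5′ probe was at 8.12, 7.88 and 7.97 on the SetD8 arrays and at 6.76, 7.22 and 6.30 on the control arrays, a difference of 1.23 ± 0.24 or 2.34-fold. This setting adds an offset of 50 units, which is above the processed signals of the 5′ probe on the control arrays.

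The gap between the Aqp8 probes was compared across arrays, its size on any array being no measure of transcript levels. The log2 signal of the 3′ probe minus that of the 5′ probe was 3.44, 3.92 and 3.70 on SetD8 1, 2 and 3 and 3.96, 4.12 and 3.32 on controls 1, 2 and 3 in the processed signal. The ranges overlapped, and the early and the late part of the transcript differed between the groups by similar amounts. In the normexp-quantile setting the gap was 3.07, 3.48 and 3.23 on the SetD8 arrays and 2.41, 2.00 and 2.38 on the control arrays, with no overlap.

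Slides 1 and 3 each held arrays of both groups, so the difference was also taken within each. Within slide 1 the Aqp8 3′ probe was 2.01 higher on the SetD8 arrays than on control 1 (log2, 75th percentile scaling), and within slide 3 it was 3.00 higher on SetD8 3 than on control 3. The 5′ probe gave 2.29 within slide 1 and 2.62 within slide 3. The groups did not overlap on either probe, so a higher SetD8 value within each slide was fixed in advance, and only its size is described. With normexp and quantile normalization the 3′ probe gave 2.10 within slide 1 and 2.51 within slide 3.

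**Figure D2:**
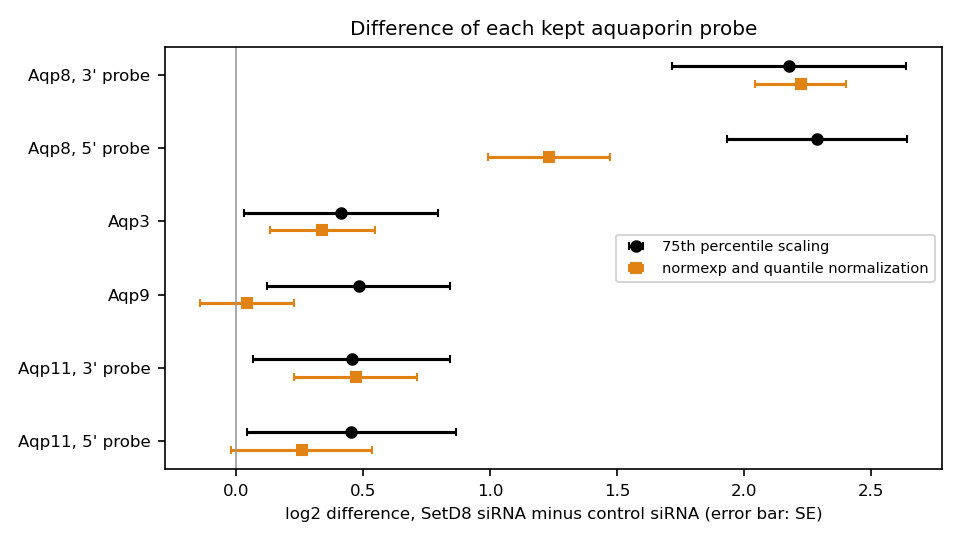
Log2 difference, SetD8 siRNA minus control siRNA (x axis), of the 6 probes that passed the filter, in the percentile setting (circles) and in the normexp-quantile setting (squares), with the standard error from limma over 6 arrays as the bar. The Aqp8 3′ probe gives 2.17 and 2.22, the Aqp8 5′ probe 2.29 and 1.23, and the probes of the other 3 genes 0.04 to 0.48.

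Aqp1, the main water channel of red cells, was barely measured. Its probe had a processed signal of 4, 3 and 114 units on SetD8 1, 2 and 3, and of 3, 6.52 and 10.6 units on controls 1, 2 and 3. It was well above background on SetD8 3 and on no other array, 1 of 3 SetD8 arrays and 0 of 3 control arrays. The probe therefore failed the filter, which asks for all arrays of a group, and Aqp1 was not tested and has no fold change.

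The Aqp1 spot on SetD8 3 carried no outlier flag, with a mean pixel signal of 166 and a median of 163 units over a local background of 36. On the other arrays the mean pixel signal ran from 55 to 76 units. Of the 55681 probes, 418 were well above background on SetD8 3 alone, 25 of them at 100 units or more. The same counts were 242 and 1 on SetD8 1, 145 and 0 on SetD8 2, 245 and 1 on control 1, 48 and 0 on control 2, and 5020 and 17 on control 3. A single probe reads Aqp1 here, so its low signal says nothing of transcripts that lack its sequence.

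The aquaglyceroporins Aqp3 and Aqp9 were measured on all 6 arrays and did not pass the test. For Aqp3 the log2 signal relative to the 75th percentile was 0.81, 0.31 and 1.34 on SetD8 1, 2 and 3 and 0.42, 0.43 and 0.38 on controls 1, 2 and 3. Aqp3 was above every control array on SetD8 1 and SetD8 3 and below every control array on SetD8 2. The difference was 0.41 ± 0.39 (SE), with a 95% interval of -0.50 to 1.32 and an adjusted p of 0.951 by limma. Under normexp and quantile normalization it was 0.34 ± 0.20, with an interval of -0.15 to 0.82 and an adjusted p of 0.51 by limma. Within slide 1 it was 0.13 and within slide 3 it was 0.97 in the percentile setting.

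Aqp9, the glycerol route of mouse red cells, gave a dim but measured signal. Its processed signal was 55.7, 22.7 and 52.1 units on SetD8 1, 2 and 3 and 30.5, 22.7 and 50.6 units on controls 1, 2 and 3. The lowest signal of any probe called well above background was 17.7, 8.41 and 10.1 units on the SetD8 arrays and 10.2, 17.1 and 14.3 units on the control arrays, so Aqp9 was closest to that limit on control 2. The log2 signal relative to the 75th percentile was -1.94, -2.41 and -1.68 on the SetD8 arrays and -2.46, -2.74 and -2.27 on the control arrays, and the groups overlapped. The difference was 0.48 ± 0.37 (SE), with a 95% interval of -0.39 to 1.35 and an adjusted p of 0.951 by limma. In the normexp-quantile setting it was 0.04 ± 0.18, with an interval of -0.38 to 0.47 and an adjusted p of 0.946 by limma.

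Aqp11, a distant member of the family known from membranes inside the cell, was measured by both of its probes and did not pass either. The log2 signal of the 3′ probe relative to the 75th percentile was 0.10, 0.25 and 0.03 on SetD8 1, 2 and 3 and -0.25, 0.16 and -0.89 on controls 1, 2 and 3. That of the 5′ probe was -0.82, -0.75 and -1.07 on the SetD8 arrays and -1.13, -0.85 and -2.0 on the control arrays. Control 3 was lowest on both probes, and control 2 lay among the SetD8 arrays. The differences of both probes were close, at 0.45 ± 0.40 (SE) for the 3′ probe in the fit over genes and 0.45 ± 0.41 for the 5′ probe in the fit over probes. Their 95% intervals were -0.47 to 1.38 and -0.52 to 1.43, and the adjusted p by limma was 0.951 and 0.931.

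With normexp and quantile normalization the Aqp11 3′ probe was at 8.02, 8.16 and 7.98 on SetD8 1, 2 and 3 and at 7.71, 7.98 and 7.06 on controls 1, 2 and 3, so that the groups no longer overlapped, by a margin seen only in the third decimal. Among all genes in that setting 13.7% were higher and 9.96% lower without overlap, 23.7% in all, and in the percentile setting 5.43% and 2.12%, 7.55% in all. The 3 paralogs tested held 1 such gene in the normexp-quantile setting, Aqp11, and 0 in the percentile setting. The difference was 0.47 ± 0.24 (SE), with a 95% interval of -0.10 to 1.04 and an adjusted p of 0.419 by limma. The 5′ probe gave 0.26 ± 0.28 there, with overlapping groups. Within slides the 3′ probe differed by 0.43 on slide 1 and 0.92 on slide 3 in the percentile setting.

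The 3 paralogs that could be tested gave 0 calls in either setting with limma, where 0% and 1.7% of all genes were called. In the percentile setting no gene passed, so the lack of calls there says nothing of the paralogs. An unadjusted p under 0.05 was found for 0 of 3 in either setting, beside 3.08% and 15.8% of all genes. No test was made of Aqp8 against its paralogs, because Aqp8 was chosen for its difference. Over the 6 arrays the Pearson correlation with the Aqp8 3′ probe in the normexp-quantile setting was 0.758 for Aqp11, 0.527 for Aqp3 and 0.207 for Aqp9. These are descriptions over arrays that fall into 2 groups.

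**Figure D3:**
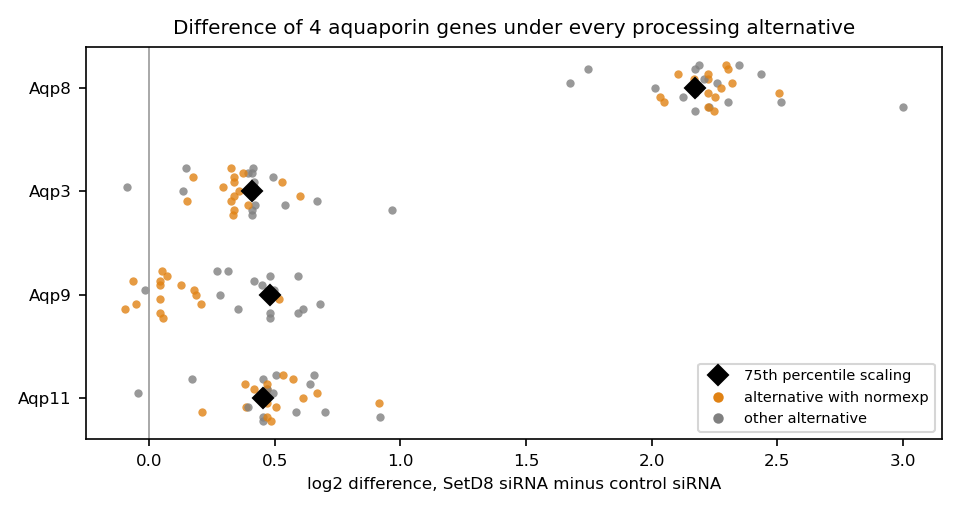
Log2 difference, SetD8 siRNA minus control siRNA (x axis), of Aqp8, Aqp3, Aqp9 and Aqp11 in the percentile setting (diamonds) and under each processing alternative, left-out array or single slide (points, orange where normexp was used). Aqp8 stays between 1.68 and 3.00, and the other 3 genes lie between -0.10 and 0.97.

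The genes whose pattern over the 6 arrays was most like that of Aqp8 were Suox, Bst2, Pde6a, Tmem19 and Naip2. They are the 5 with the highest Pearson correlation among 1483 genes with an SD of at least 0.5 in the normexp-quantile setting. Suox, the mitochondrial sulfite oxidase, correlated at 0.9989, with 10.54, 10.59 and 10.41 on SetD8 1, 2 and 3 and 9.06, 9.07 and 8.65 on controls 1, 2 and 3. Bst2, the antiviral protein tetherin, correlated at 0.9983, Pde6a, a phosphodiesterase subunit of rod photoreceptors, at 0.9973, Tmem19 at 0.997 and Naip2, an inflammasome receptor of bacterial proteins, at 0.9953. All 5 shared with Aqp8 a tight SetD8 group and a control 3 below controls 1 and 2, a likeness that follows from their choice by correlation over these arrays. Their log2 differences were 1.59, 1.73, 3.38, 0.97 and 1.78. With 6 arrays in 2 groups, many genes that differ between the groups correlate highly.

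The other aquaporins on the array were mostly dim. Of 7 genes, 4 passed the filter (Aqp2, Aqp4, Aqp5 and Aqp7), while Mip, Aqp6 and Aqp12 did not, and limma called 0 higher and 0 lower in either setting. At an unadjusted p under 0.05 it found 0 of 4 in the percentile setting and 1 of 4 in the normexp-quantile setting, Aqp2, where 3.08% and 15.8% of all genes had one. Aqp2, the vasopressin-regulated water channel of the kidney collecting duct, had a processed signal of 167, 127 and 257 units on SetD8 1, 2 and 3 and of 115, 43.8 and 195 units on controls 1, 2 and 3. Its difference was 1.00 ± 0.51 (SE, adjusted p = 0.951 by limma) in the percentile setting and 0.57 ± 0.21 (adjusted p = 0.249) in the normexp-quantile setting.

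Aqp5, the water channel of glands and lung, had a difference of 1.24 ± 1.17 and Aqp7, an aquaglyceroporin of fat cells, one of 0.15 ± 0.36 (SE) in the percentile setting. The Aqp5 probe behind this value passed the filter through the SetD8 group alone. It was not well above background on control 2, at 3.97 units, and was above every SetD8 array on control 3, at 224 units. In the normexp-quantile setting the Aqp5 difference was 0.14 ± 0.34. The other Aqp5 probe failed the filter and, like that of Aqp1, was brightest on SetD8 3, with 163 units there and 4.06 to 21.6 units on the other arrays. Unlike the Aqp1 probe, it was also well above background on control 3, at 21.6 units. The median difference of the 4 genes, Aqp5 included, was 0.58 in the percentile setting and 0.02 in the normexp-quantile setting, where that of all genes was 0.04 and 0.03.

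Genes of red cell membrane transport gave no calls. Of 23 genes 20 were measured, and limma called 0 higher and 0 lower in either setting, with 3 of 20 at an unadjusted p under 0.05 in the percentile setting (3.08% of all genes) and 4 of 20 in the normexp-quantile setting (15.8% of all genes). The 3 with the smallest p were Slc2a1, the glucose transporter, Slc4a1, the anion exchanger band 3, and Rhag, the Rh-associated glycoprotein that passes ammonia. Their differences were -1.46 ± 0.41, -1.41 ± 0.48 and 1.05 ± 0.39 (SE), each with an adjusted p of 0.951. Under normexp and quantile normalization they were -1.28 (adjusted p = 0.057), -1.19 (0.194) and 0.73 (0.168). The median of the list was -0.10 and -0.04 in these settings.

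Genes of cell volume and osmotic response, and of glycerol handling, showed no calls either. Of 19 volume and osmotic genes 15 were measured, with 0 higher, 0 lower and 0 at an unadjusted p under 0.05 in the percentile setting, and 0, 0 and 2 in the normexp-quantile setting, where 15.8% of all genes had such a p. The chloride channel Clcn2 had differences of -0.62 and -0.44, the aldose reductase Akr1b3, which makes the osmolyte sorbitol, 0.63 and 0.75, and Nfat5, the transcription factor of the osmotic response, 0.49 and 0.06 in these settings. Of 11 glycerol genes 8 were measured, with 0 higher, 0 lower and 0 at an unadjusted p under 0.05, and then 0, 0 and 2, beside the same 15.8%. The triose kinase Tkfc gave 0.81 and 0.69, the hormone-sensitive lipase Lipe 0.68 and 0.46, and Gpam, the mitochondrial acyltransferase that acts on glycerol 3-phosphate, -0.32 and -0.23.

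Hydrogen peroxide is a solute that Aqp8 is known to pass. Of the genes that make or remove it, 0 of 16 measured rose in the percentile setting, beside 0% of all genes. In the normexp-quantile setting 1 of 16 rose, beside 1.46% of all genes called higher. That gene was Cyba, the p22phox subunit shared by NADPH oxidases, at 12.39, 12.89 and 12.44 on SetD8 1, 2 and 3 and 11.35, 11.28 and 11.39 on controls 1, 2 and 3 (log2). Its difference was 1.23 ± 0.16 (SE, adjusted p = 0.0243 by limma), and 1.04 ± 0.40 (adjusted p = 0.951) in the percentile setting. With slide as a block the adjusted p was 0.114, and without any 1 array it was 0.0375 to 0.161, with only the fit without control 3 under 0.05. Of 21 genes 16 were measured, 0 fell in either setting, and 1 had an unadjusted p under 0.05 in the percentile setting (3.08% of all genes) and 6 in the normexp-quantile setting (15.8% of all genes). Thioredoxin, Txn1, gave -0.91 and -0.71 (adjusted p = 0.951 and 0.0522) and catalase, Cat, 0.24 and 0.35. The list had a median of -0.14 in the percentile setting and of 0.07 in the normexp-quantile setting.

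**Figure D4:**
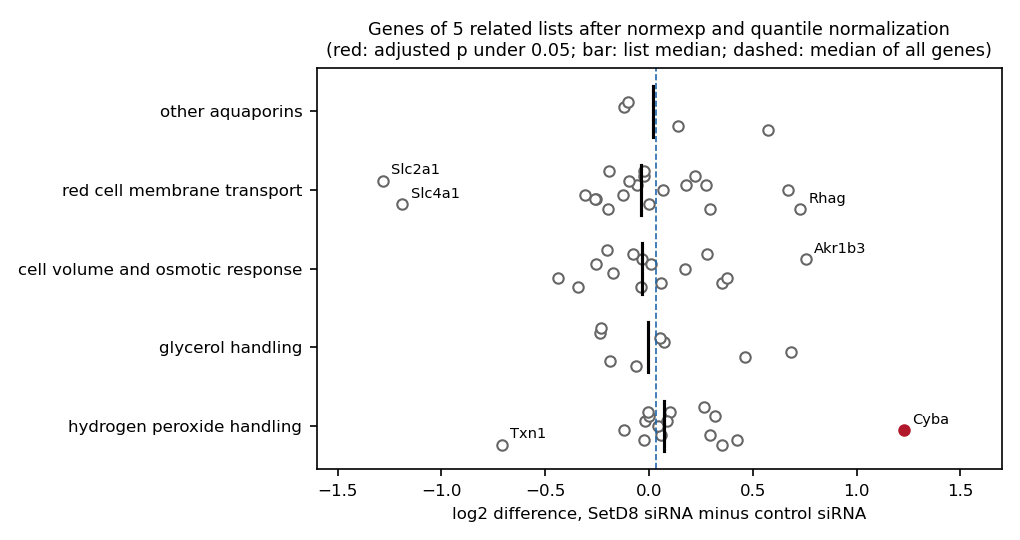
Log2 difference, SetD8 siRNA minus control siRNA, in the normexp-quantile setting (x axis) for the measured genes of 5 lists related to the aquaporins, each point 1 gene, filled red at an adjusted p under 0.05, with bars at list medians and a dashed line at the median of all genes, 0.03. Cyba is the only filled point, and the list medians lie between -0.04 and 0.07.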

How the data were processed

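Total RNA was hybridised as Cy3-labelled cRNA in 1 colour, per the labels. Spot intensity in the deposited scanner output is linear, background-subtracted and detrended within each array by Feature Extraction 10.7.3.1 with surrogate values near background, per the file headers. The deposited series matrix matched the processed signal within 0.005, so its linear scale and lack of centring are known. Medians by column were 45.2, 23.9 and 30.1 for SetD8 1, 2 and 3 and 28.8, 7.15 and 76.1 for controls 1, 2 and 3. Among tools, the submitters' processing notes list limma, without a version or role; the authors' normalization and test are not given in the sources used here.

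Groups and replicate numbers came from the sample titles. Control spots and the 139 to 176 outlier spots per array were left out, spots of a probe were averaged, and 26762 probes were named by accession, 3819 by symbol and 639 by synonym through a reference table of GRCm38.p6. Probes not well above background throughout at least 1 group were left out, and the brightest remaining probe by mean stood for its gene. In the main setting, log2 of the processed signal minus the array's 75th percentile was tested with limma 3.58.1 in R 4.3.3 (two-sided, Benjamini-Hochberg over 14420 genes, threshold 0.05); probes were tested alike over 30952 kept probes. The second setting was normexp (offset 50) of mean spot signal over median local background, then quantile normalization. The offset makes differences of dim probes smaller. The number of arrays limits the precision, and 0 spots were saturated. The test was checked on simulated data.

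The members, lists and alternatives were chosen with earlier results of these data known. The rule for named genes took Setd8, the 5 members, from each list the genes past the threshold or, with fewer than 3 such, the 3 with the smallest p, and the 5 genes most correlated with Aqp8. The neighbouring genes in the closing section were added after seeing the data. Files were plotted with Python 3.11.15 and matplotlib 3.10.9.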

Additional observations from a re-analysis of the deposited data

How the results depend on the processing

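Aqp8 was higher after SetD8 siRNA under each of the 32 alternatives, by 1.68 to 3.00 (log2), and the highest value, 3.00, was within slide 3. Aqp8 was chosen for this increase, and its groups did not overlap. A positive sign without an array, within a slide, with a block or under another filter was therefore fixed in advance. Only the size is described. Without each array in turn the Aqp8 difference was 1.75 to 2.51 at the 75th percentile scaling and 2.05 to 2.32 after normexp and quantile normalization. Aqp3, Aqp9 and Aqp11 passed under none of the fits, with lowest adjusted p of 0.31, 0.243 and 0.132. Median scaling turned their signs to -0.089, -0.018 and -0.045, but moved the median of all genes to -0.45, so that relative to it they were 0.37, 0.44 and 0.41. With the percentile taken over detected probes that median was 0.17, against 0.04 in the main setting. Within slide 3 the differences were 0.97 for Aqp3 and 0.92 for Aqp11 (0.92 also after normexp and quantile normalization). Aqp1 has no fold change, and its values here rest in part or wholly on signals not well above background: 3.98 within slide 3, where control 3 was not well above background, and -0.58 to 2.02 without each array, with -0.58 when SetD8 3, the one array that detected it, was left out. After normexp and quantile normalization Aqp9 was -0.065 within slide 1, -0.053 without SetD8 3 and -0.097 without control 3, in a range of -0.097 to 0.178 without each array.

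The count of genes called was 0 in the main setting and 245 (211 higher, 34 lower) after normexp and quantile normalization. It was 37 (36 and 1) with normexp and the 75th percentile, 45 (43 and 2) with quantile normalization alone, 131 (121 and 10) with the 75th percentile over detected probes, 105 for genes detected on all 6 arrays, 130 with slide as a block, and 124 with an offset of 16. On top of normexp and quantile normalization it was 196 with no filter, 598 for genes detected on all 6 arrays and 14 with slide as a block. Without each array it was 0 to 166 in the main setting, with 166 (75 higher, 91 lower) without control 2 and 0 otherwise. After normexp and quantile normalization it was 0 to 207: 0 without control 1, SetD8 1 or SetD8 2, 5 without SetD8 3, 99 without control 2 and 207 without control 3. The cause of these shifts was not tested.

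The labels do not say whether equal replicate numbers pair the arrays. Same-numbered deviations correlated at 0.24, -0.27 and -0.37 in the main setting. These values cannot decide it, because differences in detection between whole arrays enter the deviations. With the replicate number as a block limma called 0 genes in the main setting and 0 after normexp and quantile normalization, with 338 and 1954 at an unadjusted p under 0.05, and the Aqp8 difference was 2.17 and 2.22.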

Other observations

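The protein-coding genes next to each aquaporin on the reference assembly were looked up after the data had been seen. Lcmt1, a carboxyl methyltransferase that borders Aqp8 on one side, had a log2 signal of 4.63 ± 0.08 on SetD8 arrays and 4.68 ± 0.62 on control arrays (SD, n = 3 each), a difference of -0.05 ± 0.42 (SE, adjusted p = 0.984 by limma) in the percentile setting. In the normexp-quantile setting it was 0.13 ± 0.11 (adjusted p = 0.652). Zkscan2, on the other side of Aqp8, had no probe among those that passed the filter, so it has no value here. Aqp7, which borders Aqp3, gave 0.15 and -0.10 in these settings, and Clns1a, a chaperone of the splicing machinery that borders Aqp11, gave -0.34 and -0.18. Both had adjusted p-values over 0.05 in both settings.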
